A study of Homo sapiens with 32 samples.

Results

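The genes described here are 50 mitotic spindle and kinetochore genes, chosen by symbol: cyclins and kinases that start mitosis, spindle checkpoint proteins, kinetochore and centromere subunits, spindle microtubule proteins, cytokinesis factors, condensins and regulators of anaphase. Kinesins were left out, apart from the kinetochore motor CENPE. Each symbol was found once in every one of the 6 count tables, among 57445 gene rows in 4 of them, 21549 in the LNCaP inhibitor table and 16603 in the C4-2 inhibitor table. The rule itself uses no measured value, but the list was chosen with earlier results of these data known. All 50 passed the filter on low counts in every comparison.

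In a dividing cell, cyclin B with CDK1 and the kinases PLK1 and Aurora A drive entry into mitosis. Chromosomes are then caught by spindle microtubules at the kinetochore, a layered protein complex built on CENPA chromatin of the centromere. Until every kinetochore is attached, the spindle checkpoint holds back CDC20, the activator of the anaphase-promoting complex, and with it the release of sister chromatids. Most of these genes are transcribed in G2 and mitosis and stay low in resting cells, so their RNA is widely used to describe how much a culture proliferates.

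RNA came from 4 human prostate cancer cell lines in 32 libraries, 2 per group: LNCaP, an androgen-sensitive line, C4-2, its castration-resistant derivative, 22Rv1, another castration-resistant line, and PC3, an androgen-independent line. In the first experiment the lines were infected with a scramble shRNA or with shCSN5, a hairpin against CSN5; this protease of the COP9 signalosome takes NEDD8 off cullin ubiquitin ligases. The titles name the same hairpin, sh37, in every shCSN5 library, so an effect of that hairpin and an effect of losing CSN5 cannot be told apart within this experiment. In the second experiment the lines had DMSO or CSN5i-3, a small-molecule inhibitor of CSN5, which PC3 received at 10 µM and both LNCaP and 22Rv1 at 5 µM. The C4-2 libraries carry labels that conflict: NT stands in the title of 2 whose description names 1 µM CSN5i-3, and C5i in the title of 2 whose description names DMSO. These pairs are given only as titled, and every sign would turn if the descriptions held. Where a C4-2 inhibitor pair is called treated or control, or a gene is said to fall or rise in it, this is by title. PC3 shCSN5 replicate 2 carries a characteristic naming drug treatment but is shCSN5 in both its title and description, and was used as such. Treatment times are not given, and nothing states that replicates were separate cultures, so the spread behind every p-value is that of these libraries and may be technical.

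Library totals ran from 20607109 to 50924252 counts. COPS5, which encodes CSN5, fell with shCSN5 in all 4 lines, by 2.68 (22Rv1) to 4.50 (LNCaP) on the log2 scale. Under CSN5i-3 its change was 0.11 (adjusted p = 0.33) in LNCaP, 0.16 (adjusted p = 0.48) in 22Rv1 and 0.48 in PC3 (edgeR quasi-likelihood test). The luminal marker KLK3, which encodes prostate-specific antigen, stood at most at 0.0672 CPM in any PC3 library. It moved with the inhibitor, from 2634 and 2680.0 CPM in LNCaP DMSO to 339 and 338 CPM in LNCaP CSN5i-3. In 22Rv1 it went the other way, from 38.5 and 43.3 to 70.1 and 57.96 CPM with CSN5i-3 and from 42.4 and 40.6 to 202 and 197 CPM with shCSN5. Fibroblast markers summed to at most 58.1 CPM and leukocyte markers to at most 9.10 CPM in any group. Mitochondrial RNA took 2.89% to 7.47% of counts outside the C4-2 inhibitor table, which lists none of the 37 mitochondrial genes (the LNCaP inhibitor table lists 25), with 5.54% and 5.99% in LNCaP DMSO and 7.31% and 7.47% in LNCaP CSN5i-3, and the part of these markers and of mitochondrial RNA in the results was not tested.

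The start sites of these genes share short sequences that the choice of genes did not use. Many promoters of G2 and mitosis genes carry a cell cycle homology region, TTTGAA or TTCGAA, which is bound by repressor complexes in resting cells, and CCAAT boxes, which NF-Y binds. Of the 50 genes, 42 have at least 1 start in the RefSeq promoter table (GRCh38.p14; 250 bases before the start to 50 after), in 52 windows. TTTGAA, read on both strands, was in 67.3% of these windows and in 15.2% of all 35116 promoters. TTTGAA or TTCGAA was in 69.2% of the windows against 16.4% of all promoters, and CCAAT in 73.1% against 34.6%. Both together, CCAAT with TTTGAA or TTCGAA, stood in 53.8% of the windows and in 6.38% of all promoters, and in 25 of the 42 genes. On the opposite strand TTTGAA reads TTCAAA. There CCAAT reads ATTGG, while TTCGAA is unchanged. A CCAAT match on the opposite strand can share a base with TTTGAA. A match describes the letters only.

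The 250 bases before a listed start are shown for 6 genes that span the pattern, with the matches in capitals. The windows of CDC20, MKI67, CDK1 and ESPL1 hold both motifs, and that of AURKB holds CCAAT only. CENPI had the lowest change of the 50 in 22Rv1 with the inhibitor, and its window holds none. Which start these cells use was not tested, so a window without a match does not show that a gene's main promoter lacks it. The windows of AURKB and CENPI end in ag close before an ATG, as an intron before a coding exon would. They may be intron and not promoter sequence, so their lack of TTTGAA or TTCGAA says nothing about the promoters of these genes. Whether they are intron sequence was not tested. Only windows with no stretch of 31 bases in a GENCODE 29 transcript were eligible. They lie at chr1:43358731-43358980 (plus strand, CDC20), chr10:128126424-128126673 (minus strand, MKI67), chr10:60778081-60778330 (plus strand, CDK1), chr12:53268049-53268298 (plus strand, ESPL1), chr17:8210226-8210475 (minus strand, AURKB) and chrX:101100808-101101057 (plus strand, CENPI), and each reads 5′ to 3′ on the strand of its gene.
CDC20: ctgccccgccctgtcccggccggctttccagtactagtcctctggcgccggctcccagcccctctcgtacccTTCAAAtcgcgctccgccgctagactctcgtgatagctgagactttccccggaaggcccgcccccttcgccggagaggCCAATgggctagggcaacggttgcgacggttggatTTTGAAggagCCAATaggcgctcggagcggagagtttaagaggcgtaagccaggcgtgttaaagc
MKI67: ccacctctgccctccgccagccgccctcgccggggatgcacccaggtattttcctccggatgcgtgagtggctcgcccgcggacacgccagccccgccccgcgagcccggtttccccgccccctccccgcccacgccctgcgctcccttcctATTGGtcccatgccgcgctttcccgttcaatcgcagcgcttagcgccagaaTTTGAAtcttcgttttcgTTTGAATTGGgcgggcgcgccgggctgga
CDK1: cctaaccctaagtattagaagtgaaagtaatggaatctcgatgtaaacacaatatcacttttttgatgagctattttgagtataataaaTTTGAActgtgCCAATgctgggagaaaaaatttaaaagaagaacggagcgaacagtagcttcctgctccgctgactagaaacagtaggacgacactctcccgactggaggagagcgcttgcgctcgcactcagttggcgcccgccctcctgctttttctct
ESPL1: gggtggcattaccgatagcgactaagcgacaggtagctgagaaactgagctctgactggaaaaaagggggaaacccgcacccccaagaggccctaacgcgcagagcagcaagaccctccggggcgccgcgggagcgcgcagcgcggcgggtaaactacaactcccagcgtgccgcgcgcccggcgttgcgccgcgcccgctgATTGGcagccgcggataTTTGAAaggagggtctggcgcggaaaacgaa
AURKB: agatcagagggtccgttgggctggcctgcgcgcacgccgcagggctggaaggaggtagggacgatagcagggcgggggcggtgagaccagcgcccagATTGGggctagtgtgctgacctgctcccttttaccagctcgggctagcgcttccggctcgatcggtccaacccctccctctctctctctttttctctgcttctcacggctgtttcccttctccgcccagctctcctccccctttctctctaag
CENPI: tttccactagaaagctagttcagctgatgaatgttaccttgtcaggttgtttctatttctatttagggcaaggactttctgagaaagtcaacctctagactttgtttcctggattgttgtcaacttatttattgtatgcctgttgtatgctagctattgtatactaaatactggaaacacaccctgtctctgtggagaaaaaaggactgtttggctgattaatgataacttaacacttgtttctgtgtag

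CDC20 has 2 of each motif, one of its TTTGAA matches being on the opposite strand. MKI67 has 2 of each with CCAAT on the opposite strand, and the windows shown for CDK1 and ESPL1 have 1 of each. CDK1 has a second, downstream start in the table, whose sequence overlaps a CDK1 transcript and was not eligible to be shown. Its full promoter window holds 3 TTTGAA matches, including a match after the start, and 2 CCAAT matches. AURKB has a second start in the table, 24 bases away, whose window holds the same CCAAT and has the same ending in ag. As a description, genes with TTTGAA or TTCGAA in a listed window (32) had a median change of -3.67 with shCSN5 in LNCaP. It was -3.54 for the 10 without a match there, AURKB and CENPI among them. Since the windows of AURKB and CENPI may not be promoters, the split may misplace these genes. With CSN5i-3 the medians were -5.03 and -3.87 in LNCaP, and -1.74 and -1.95 in 22Rv1, where the order was the other way round.

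Knockdown of CSN5 lowered nearly the whole set in LNCaP, C4-2 and 22Rv1, and 26 of its 50 genes in PC3. A gene is called changed where its adjusted p is under 0.05 in edgeR's quasi-likelihood test over all genes (Benjamini-Hochberg). Changes are log2 fold changes, treated minus control, ± SE with n = 2 libraries per group. With 2 libraries per group, values can separate when nothing changed, so a lack of overlap is a description and no test. The share of all genes without overlap was not counted. Levels are in CPM, counts per 1000000 of the scaled library total, and bear comparison between groups, not between genes of different length. In LNCaP 49 of the 50 fell with shCSN5 (median -3.58, from -5.24 to -0.11), where 17.4% of all genes tested fell. In C4-2 all 50 fell (median -1.63, -2.12 to -0.59), against 16.2% of all genes. In 22Rv1 49 fell (median -1.24, -1.86 to -0.14), against 21.3%. In PC3 26 fell and no gene rose (median -0.44, -0.95 to 0.37), against 6.41% of all genes that fell there. The count in PC3 rests on both knockdown libraries: it was 7 without shCSN5 replicate 1 and 8 without shCSN5 replicate 2. A fall of at least 2-fold was reached by 48 genes in LNCaP (9.54% of all genes), 48 in C4-2 (6.04%), 40 in 22Rv1 (4.13%) and 0 in PC3 (1.17%). In all 4 lines together 25 genes fell, and 48 fell in LNCaP, C4-2 and 22Rv1. The share of all genes that fell in these lines together was not counted.

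CSN5i-3 lowered almost every gene in each line. In LNCaP at 5 µM all 50 fell (median -4.68, from -7.02 to -0.37), where 26.5% of all genes fell. In 22Rv1 at 5 µM 49 fell (median -1.74, -2.21 to 0.044), against 12.2%. In PC3 at 10 µM all 50 fell (median -2.10, -4.06 to -0.20), against 38.5% (chi-square per gene between the libraries of a group 1.72 with DMSO and 2.41 with CSN5i-3, where counting error alone gives about 1). In the C4-2 pairs all 50 were lower in the pair titled C5i than in the pair titled NT (median -4.84, -8.90 to -1.16), against 37.9%. Falls of at least 2-fold numbered 49 in LNCaP (9.74% of all genes), 48 in 22Rv1 (7.52%), 43 in PC3 (12.6%) and 50 in the C4-2 pairs (19.1%). Across LNCaP, 22Rv1 and PC3, 49 genes fell in all 3 lines, the exception being CENPN. How many of all genes fell in all 3 lines was not counted. None of the 50 rose in any of these comparisons by the edgeR test or by DESeq2, and at an unadjusted p under 0.05 the number was 1 in the PC3 knockdown (SMC2) and 0 in the other 7. Of all genes, the share that rose was 18.3%, 15.7%, 22.6% and 10.3% with shCSN5 (LNCaP, C4-2, 22Rv1, PC3), 26.2%, 11.8% and 38.5% with CSN5i-3 (LNCaP, 22Rv1, PC3) and 37% in the C4-2 pairs as titled. Over all genes tested the median change lay within 0.05 of 0 in each of these 8 comparisons.

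Summed over the 50 genes, the 2 scramble libraries of LNCaP held 3208 and 3196 CPM (of the unscaled library total here) and its shCSN5 libraries 531 and 488. The sums went from 7622 and 7067 to 2459 and 2529 in C4-2, from 7989 and 8334 to 3592 and 3659 in 22Rv1 and from 8523 and 7817 to 6663 and 6273 in PC3. No treated library overlapped its controls, and PC3 kept the largest share of its control level. With CSN5i-3 the sums went from 2427 and 2299 to 214 and 213 in LNCaP, from 8618 and 7915 to 2594 and 2914 in 22Rv1 and from 2551 and 2581 to 667 and 674 in PC3. The C4-2 pair titled NT summed to 4654 and 4908 and the pair titled C5i to 328 and 319. In bulk RNA, fewer cells in G2 and mitosis and less of this RNA per cell cannot be told apart. PC3 control libraries summed higher in the knockdown experiment than in the inhibitor experiment, a difference between separate tables that was not tested.

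**Figure D1:**
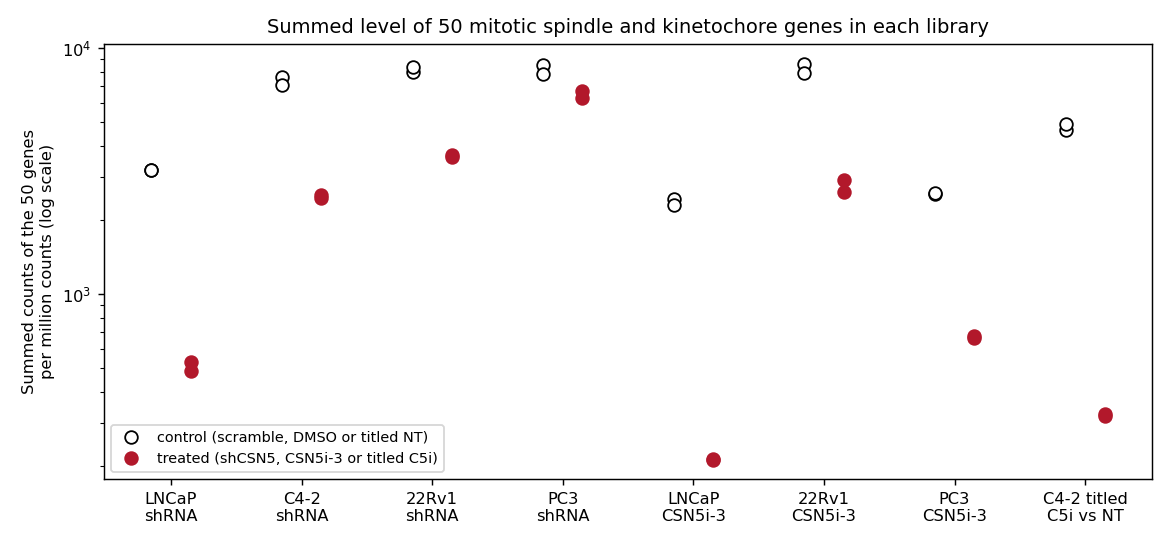
Summed level of the 50 genes (CPM of the unscaled library total) in each of the 32 libraries, on a log axis, with open circles for control and filled circles for treated libraries. Every treated pair lies below its control pair, by the narrowest margin in PC3 with shCSN5.

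Among the cyclins and kinases of mitotic entry (CCNA2, CCNB1, CCNB2, CDK1, CDC25C, PLK1, AURKA), all 7 fell with shCSN5 in LNCaP, C4-2 and 22Rv1 and 6 fell in PC3, where the phosphatase CDC25C changed by -0.29 ± 0.12 (adjusted p = 0.15). All 7 fell with CSN5i-3 in every line. Values below give the 2 control libraries first and the 2 treated libraries second, replicate 1 before replicate 2, and C4-2 by title means NT first and C5i second. With shCSN5, CCNB1 stood at 188 and 194, then 33.04 and 26.96 CPM in LNCaP (-2.67 ± 0.15) and at 322 and 289.8, then 105 and 111 CPM in C4-2 (-1.50 ± 0.10). CCNB1 also stood at 275 and 301, then 119 and 126 CPM in 22Rv1 (-1.23 ± 0.081) and at 304 and 288, then 181 and 168 CPM in PC3 (-0.76 ± 0.094). Cyclin B1, which binds CDK1 and carries the cell into mitosis, was thus below its controls in both treated libraries of each line, with the smallest change in PC3. With CSN5i-3, CCNB1 stood at 146 and 136, then 11.8 and 10.3 CPM in LNCaP (-3.67 ± 0.10) and at 284 and 244, then 78.5 and 91.8 CPM in 22Rv1 (-1.63 ± 0.16). CCNB1 was further at 120.1 and 119, then 30.9 and 31.4 CPM in PC3 (-1.94 ± 0.038) and at 184 and 193, then 20.9 and 19.6 CPM in C4-2 by title (-3.22 ± 0.087). Both treated libraries were again below both controls throughout, by title in C4-2. On CSN5 knockdown, CDK1 stood at 97.6 and 94.8, then 21.7 and 16.8 CPM in LNCaP (-2.32 ± 0.18) and at 658 and 541, then 240.3 and 256 CPM in C4-2 (-1.27 ± 0.11). Its level stood at 200.05 and 231, then 117 and 123 CPM in 22Rv1 (-0.85 ± 0.088) and at 363 and 317, then 228 and 198 CPM in PC3 (-0.67 ± 0.12). The kinase partner of cyclin B1 had no overlap between groups in any line, and its fall in LNCaP was 4.99-fold against 1.60-fold in PC3. With CSN5i-3, CDK1 stood at 83.4 and 75.8, then 10.7 and 8.34 CPM in LNCaP (-3.07 ± 0.13) and at 209 and 175, then 77.5 and 95.1 CPM in 22Rv1 (-1.15 ± 0.17). The other inhibitor pairs had CDK1 at 42.1 and 43.4, then 9.61 and 9.59 CPM in PC3 (-2.15 ± 0.059) and at 191 and 222, then 33.3 and 31.1 CPM in C4-2 by title (-2.68 ± 0.10). CDK1 was lower in each treated pair (by title in C4-2), by the smallest change of the 7 entry genes in LNCaP, 22Rv1 and the C4-2 pairs. The PC3 knockdown call of CDK1 was lost without shCSN5 replicate 2 (adjusted p = 0.11).

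In the knockdown experiment, PLK1 stood at 86.9 and 87.5, then 3.78 and 4.19 CPM in LNCaP (-4.45 ± 0.17) and at 113 and 134, then 39.7 and 37.1 CPM in C4-2 (-1.68 ± 0.12). PLK1 levels stood at 91.7 and 79.8, then 36.5 and 37.1 CPM in 22Rv1 (-1.22 ± 0.10) and at 80.1 and 105, then 51.6 and 56.9 CPM in PC3 (-0.77 ± 0.16). PLK1, the polo-like kinase that matures centrosomes and helps build the spindle, fell 21.9-fold in LNCaP, the lowest change of the 7 entry genes in that line; its PC3 call was lost without shCSN5 replicate 1 (adjusted p = 0.069). With CSN5i-3, PLK1 stood at 60.4 and 69.8, then 1.57 and 1.21 CPM in LNCaP (-5.56 ± 0.15) and at 102 and 122, then 31.96 and 23.2 CPM in 22Rv1 (-2.02 ± 0.21). PLK1 likewise stood at 63.3 and 64.1, then 9.24 and 10.1 CPM in PC3 (-2.72 ± 0.054) and at 149 and 129.7, then 3.04 and 3.29 CPM in C4-2 by title (-5.46 ± 0.12). Its fall in LNCaP was 47.03-fold, and treated and control libraries did not overlap in any table. Cyclin A2 (CCNA2), active from S phase into early mitosis, was the gene with the lowest change of all 50 in the C4-2 knockdown, at 120.4 and 101 CPM with the scramble and 26.1 and 24.8 CPM with shCSN5 (-2.12 ± 0.12). It also stood among the 3 lowest in PC3, at 106 and 94.3 and then 59.7 and 52.8 CPM (-0.83 ± 0.12). The groups did not overlap in either line.

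Of the 5 spindle checkpoint genes (BUB1, BUB1B, BUB3, MAD2L1, TTK), 4 fell with shCSN5 in LNCaP, all 5 in C4-2 and 22Rv1, and 2 in PC3 (BUB1 and BUB3). With CSN5i-3 all 5 fell in each line. Under the hairpin, BUB1 stood at 33.3 and 33.7, then 4.88 and 3.91 CPM in LNCaP (-2.93 ± 0.19) and at 101 and 90.1, then 31.3 and 33.4 CPM in C4-2 (-1.56 ± 0.11). It further stood at 122 and 136, then 50.99 and 54.6 CPM in 22Rv1 (-1.29 ± 0.088) and at 209 and 188, then 151 and 137 CPM in PC3 (-0.46 ± 0.11). BUB1, a checkpoint kinase that sits on unattached kinetochores, had treated libraries below controls in all 4 lines; in PC3 its call was lost without shCSN5 replicate 1 or 2 (adjusted p 0.15 and 0.29). With CSN5i-3, BUB1 stood at 28.3 and 25.4, then 0.523 and 0.782 CPM in LNCaP (-5.35 ± 0.17) and at 138 and 118, then 37.3 and 42.6 CPM in 22Rv1 (-1.68 ± 0.16). For the inhibitor BUB1 was also at 46.9 and 48.5, then 17.4 and 16.7 CPM in PC3 (-1.48 ± 0.051) and at 38.2 and 41.7, then 1.16 and 0.841 CPM in C4-2 by title (-5.31 ± 0.16). In LNCaP this was a 40.7-fold fall, with the treated libraries under 1 CPM. With shCSN5, MAD2L1 stood at 30.5 and 27.8, then 4.55 and 3.51 CPM in LNCaP (-2.85 ± 0.20) and at 115 and 96.9, then 34.4 and 34.6 CPM in C4-2 (-1.62 ± 0.12). MAD2L1 also stood at 148 and 162, then 71.5 and 74.2 CPM in 22Rv1 (-1.09 ± 0.082) and at 82.3 and 80.5, then 67.4 and 58.1 CPM in PC3 (-0.38 ± 0.11). MAD2L1 encodes the checkpoint protein that binds CDC20. It fell in the first 3 lines and was not called in PC3 (adjusted p = 0.077), where no library overlapped. There it passed with a spread shared by all shRNA libraries (adjusted p = 0.032) and with a replicate block (0.00065). With CSN5i-3, MAD2L1 stood at 40.2 and 38.9, then 4.08 and 3.86 CPM in LNCaP (-3.32 ± 0.094) and at 138 and 124, then 34.2 and 42.6 CPM in 22Rv1 (-1.77 ± 0.17). MAD2L1 was further at 33.7 and 35.3, then 7.42 and 6.61 CPM in PC3 (-2.29 ± 0.067) and at 46.3 and 54.4, then 3.87 and 3.73 CPM in C4-2 by title (-3.73 ± 0.13). All 4 inhibitor comparisons had both treated libraries below both controls, by title in C4-2.

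BUB3, the WD-repeat protein that carries BUB1 and BUBR1 to kinetochores, had one of the 3 smallest falls of the 50 genes in 6 of the 8 comparisons. On CSN5 knockdown, BUB3 stood at 108 and 109, then 103 and 98.6 CPM in LNCaP (-0.11 ± 0.12) and at 225 and 205, then 144 and 142 CPM in C4-2 (-0.59 ± 0.093). Its level stood at 206 and 213, then 160.2 and 164 CPM in 22Rv1 (-0.37 ± 0.073) and at 286 and 277, then 203 and 187 CPM in PC3 (-0.53 ± 0.093). In LNCaP the change missed the threshold (adjusted p = 0.53), and in PC3 it passed (adjusted p = 0.022), though leaving out shCSN5 replicate 1 or 2 gave adjusted p of 0.1 and 0.19. With CSN5i-3, BUB3 stood at 96.3 and 95.7, then 72.8 and 75.5 CPM in LNCaP (-0.37 ± 0.067) and at 192 and 176, then 111 and 118 CPM in 22Rv1 (-0.68 ± 0.13). The other inhibitor pairs had BUB3 at 118 and 117, then 64.5 and 63.1 CPM in PC3 (-0.88 ± 0.033) and at 141 and 146, then 66.3 and 62.1 CPM in C4-2 by title (-1.16 ± 0.079). BUB3 passed the threshold in each, but its call was lost in LNCaP without CSN5i-3 replicate 1 (adjusted p = 0.061) and in 22Rv1 without DMSO replicate 1 (0.11).

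The chromosomal passenger complex (AURKB, BIRC5, INCENP, CDCA8) corrects faulty attachments and later directs cytokinesis. Its 4 genes fell with shCSN5 in LNCaP, C4-2 and 22Rv1 and with CSN5i-3 in all lines, and 2 of them (BIRC5, CDCA8) fell with shCSN5 in PC3. In the knockdown experiment, AURKB stood at 46.1 and 46.8, then 1.54 and 1.86 CPM in LNCaP (-4.76 ± 0.19) and at 41.5 and 51.01, then 19.2 and 15.7 CPM in C4-2 (-1.40 ± 0.16). AURKB levels stood at 60.98 and 55.7, then 25.5 and 23.1 CPM in 22Rv1 (-1.26 ± 0.10) and at 33.1 and 43.2, then 24.04 and 25.7 CPM in PC3 (-0.61 ± 0.16). Aurora B, the kinase of the complex, had no overlapping libraries, but in PC3 it was not called (adjusted p = 0.057). There it passed with DESeq2 (0.0083), DESeq2 size factors (0.038), no filter on low counts (0.0037) or a spread shared by all shRNA libraries (0.0083). It was not called with total counts. Its change was -0.79 without scramble replicate 1 and -0.47 without scramble replicate 2. With CSN5i-3, AURKB stood at 25.1 and 26.9, then 0.601 and 0.592 CPM in LNCaP (-5.44 ± 0.13) and at 67.1 and 78.3, then 20.01 and 16.996 CPM in 22Rv1 (-1.97 ± 0.18). AURKB likewise stood at 19.7 and 18.7, then 3.34 and 3.63 CPM in PC3 (-2.47 ± 0.089) and at 92.3 and 90.8, then 0.463 and 1.10 CPM in C4-2 by title (-6.89 ± 0.19). Fold changes here were 43.4 in LNCaP and 3.93 in 22Rv1 at the same dose. Under the hairpin, BIRC5 stood at 165 and 163, then 8.58 and 9.57 CPM in LNCaP (-4.18 ± 0.15) and at 181 and 189.8, then 56.96 and 49.4 CPM in C4-2 (-1.80 ± 0.11). It further stood at 183 and 175, then 84.4 and 82.03 CPM in 22Rv1 (-1.11 ± 0.077) and at 325 and 364, then 214 and 226 CPM in PC3 (-0.65 ± 0.10). Survivin (BIRC5) passed the threshold in every line, in PC3 only with both shCSN5 libraries (adjusted p 0.087 and 0.053 without replicate 1 or 2). With CSN5i-3, BIRC5 stood at 93.3 and 94.7, then 1.59 and 1.73 CPM in LNCaP (-5.82 ± 0.10) and at 182 and 194, then 51.4 and 45.3 CPM in 22Rv1 (-1.96 ± 0.14). For the inhibitor BIRC5 was also at 245 and 252, then 21.4 and 23.2 CPM in PC3 (-3.48 ± 0.037) and at 265 and 255, then 2.58 and 2.08 CPM in C4-2 by title (-6.79 ± 0.12). Each treated pair was far below its controls, by title in C4-2. At the same 5 µM dose the fall was smaller in 22Rv1 than in LNCaP.

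INCENP, the scaffold of the complex, was among the 3 smallest changes in several comparisons. It went from 48.7 and 47.5 to 11.8 and 17.6 CPM in LNCaP (-1.71 ± 0.22) and from 46.2 and 61.1 to 26.96 and 25.6 CPM in C4-2 (-1.03 ± 0.15) with shCSN5. CSN5i-3 took INCENP from 27.2 and 33.6 to 9.80 and 8.72 CPM in LNCaP (-1.72 ± 0.13) and from 38.2 and 36.4 to 22.4 and 25.7 CPM in PC3 (-0.64 ± 0.053). In the C4-2 pairs it went from 76.4 and 65.6 CPM (titled NT) to 19.7 and 20.7 CPM (titled C5i; -1.82 ± 0.10). These falls were called and the libraries did not overlap. CDCA8 (borealin) was among the 3 lowest changes of the PC3 knockdown, from 89.2 and 95.5 to 51.3 and 53.7 CPM (-0.81 ± 0.10).

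Outer kinetochore and corona genes (NDC80, NUF2, SPC24, SPC25, ZWINT, ZWILCH, CENPE, CENPF) make the surface that binds microtubules. All 8 fell with shCSN5 in LNCaP, C4-2 and 22Rv1 and with CSN5i-3 in each line, and 3 fell with shCSN5 in PC3 (SPC24, SPC25, ZWINT). With shCSN5, NDC80 stood at 35.2 and 33.8, then 2.82 and 2.40 CPM in LNCaP (-3.72 ± 0.18) and at 117 and 97.996, then 29.2 and 30.4 CPM in C4-2 (-1.85 ± 0.12). NDC80 also stood at 105 and 120.2, then 44.4 and 41.98 CPM in 22Rv1 (-1.38 ± 0.094) and at 102 and 93.6, then 88.4 and 79.6 CPM in PC3 (-0.22 ± 0.11). NDC80, the microtubule-binding subunit, separated treated from control libraries in all lines, but was not called in PC3 (adjusted p = 0.21). With CSN5i-3, NDC80 stood at 25.4 and 23.6, then 0.654 and 0.687 CPM in LNCaP (-5.19 ± 0.13) and at 104 and 90.01, then 27.5 and 31.1 CPM in 22Rv1 (-1.73 ± 0.17). NDC80 was further at 27.3 and 28.1, then 6.21 and 6.02 CPM in PC3 (-2.18 ± 0.071) and at 31.3 and 34.9, then 0.165 and 0.146 CPM in C4-2 by title (-7.69 ± 0.20). The fall was 36.4-fold in LNCaP at 5 µM and 4.52-fold in PC3 at 10 µM, and these doses are not compared. On CSN5 knockdown, CENPF stood at 60.2 and 57.96, then 1.80 and 1.51 CPM in LNCaP (-5.16 ± 0.19) and at 297 and 251, then 71.4 and 76.7 CPM in C4-2 (-1.89 ± 0.11). Its level stood at 402 and 435, then 129 and 134 CPM in 22Rv1 (-1.67 ± 0.079) and at 308 and 278, then 294 and 266 CPM in PC3 (-0.067 ± 0.10). CENPF, a large coiled-coil protein of the corona, fell 35.7-fold in LNCaP, while in PC3 the groups overlapped (adjusted p = 0.69). With CSN5i-3, CENPF stood at 57.1 and 53.1, then 0.811 and 0.829 CPM in LNCaP (-6.06 ± 0.12) and at 449 and 384, then 114 and 129 CPM in 22Rv1 (-1.78 ± 0.15). The other inhibitor pairs had CENPF at 54.2 and 52.3, then 11.1 and 9.12 CPM in PC3 (-2.39 ± 0.059) and at 41.6 and 46.2, then 1.26 and 1.57 CPM in C4-2 by title (-4.96 ± 0.15). With the inhibitor no groups overlapped, and CENPF fell in each line.

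In the knockdown experiment, ZWILCH stood at 45.3 and 42.9, then 9.28 and 7.35 CPM in LNCaP (-2.41 ± 0.18) and at 170.2 and 146, then 53.7 and 57.8 CPM in C4-2 (-1.51 ± 0.11). ZWILCH levels stood at 149 and 163, then 89.1 and 88.8 CPM in 22Rv1 (-0.81 ± 0.080) and at 79.4 and 68.3, then 76.5 and 66.9 CPM in PC3 (-0.043 ± 0.13). ZWILCH, a subunit of the complex that brings dynein and checkpoint proteins to the kinetochore, overlapped between groups in PC3 (adjusted p = 0.84). With CSN5i-3, ZWILCH stood at 35.6 and 32.1, then 5.94 and 5.28 CPM in LNCaP (-2.59 ± 0.11) and at 145 and 123, then 49.4 and 57.7 CPM in 22Rv1 (-1.32 ± 0.16). ZWILCH likewise stood at 19.3 and 20.8, then 13.3 and 12.5 CPM in PC3 (-0.63 ± 0.066) and at 40.4 and 43.3, then 2.25 and 2.05 CPM in C4-2 by title (-4.28 ± 0.13). In PC3 it was among the 3 smallest falls with CSN5i-3, though called. CENPE, the kinesin-type motor that moves chromosomes to the spindle equator, had the lowest change of all 50 in LNCaP with shCSN5, from 16.995 and 17.5 to 0.587 and 0.323 CPM (-5.24 ± 0.28). In 22Rv1 it was among the 3 smallest falls, from 88.2 and 98.3 to 64.5 and 64.4 CPM (-0.53 ± 0.087). In PC3 it stood at 82.6 and 70.5 CPM with the scramble and 97.1 and 88.7 CPM with shCSN5 (0.28 ± 0.12, adjusted p = 0.16). Both treated libraries were above both controls there. The change was 0.40 without scramble replicate 1, and it was not called with DESeq2, with DESeq2's size factors or with total counts. CSN5i-3 took CENPE from 15.9 and 13.3 to 1.78 and 1.54 CPM in LNCaP (-3.14 ± 0.15). NUF2, the partner of NDC80, was among the 3 lowest in the C4-2 knockdown, from 62.1 and 54.6 to 14.7 and 13.6 CPM (-2.05 ± 0.13). SPC25 and SPC24, which tie the NDC80 complex to the inner kinetochore, were among the 3 lowest in PC3 with CSN5i-3. SPC25 went from 7.07 and 8.18 to 0.471 and 0.617 CPM (-3.82 ± 0.17), and SPC24 from 17.8 and 17.2 to 1.18 and 1.38 CPM (-3.78 ± 0.11). In the C4-2 pairs SPC25 went from 25.3 and 28.5 CPM (titled NT) to 0.132 and 0 CPM (titled C5i; -8.52 ± 0.31). Their treated libraries lay far below the controls, by title in C4-2.

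At the inner centromere (CENPA, CENPH, CENPI, CENPK, CENPN), all 5 fell with shCSN5 in LNCaP and C4-2, 4 in 22Rv1 and 1 in PC3 (CENPA). CSN5i-3 lowered all 5 in LNCaP and PC3 and 4 in 22Rv1. Under the hairpin, CENPA stood at 10.4 and 10.7, then 0.660 and 0.502 CPM in LNCaP (-4.18 ± 0.23) and at 29.2 and 24.7, then 10.7 and 11.1 CPM in C4-2 (-1.31 ± 0.15). It further stood at 20.6 and 26.4, then 7.12 and 6.73 CPM in 22Rv1 (-1.76 ± 0.16) and at 51.8 and 50.3, then 33.7 and 35.9 CPM in PC3 (-0.55 ± 0.11). CENPA, the histone H3 variant that marks the centromere, had no overlap in any line, and in PC3 its call was lost without shCSN5 replicate 1 or 2 (adjusted p 0.26 and 0.16). With CSN5i-3, CENPA stood at 9.89 and 10.2, then 0.314 and 0.237 CPM in LNCaP (-5.18 ± 0.18) and at 23.7 and 21.5, then 5.31 and 5.29 CPM in 22Rv1 (-2.09 ± 0.19). For the inhibitor CENPA was also at 18.1 and 19.4, then 4.66 and 4.69 CPM in PC3 (-2.002 ± 0.083) and at 16.2 and 18.7, then 0.595 and 0.877 CPM in C4-2 by title (-4.57 ± 0.19). It was among the 3 lowest changes of 22Rv1. CENPN, which reads CENPA nucleosomes, followed another course. It went from 189.7 and 189 to 140.4 and 130.1 CPM in LNCaP (-0.48 ± 0.12) and from 322 and 304 to 167 and 177 CPM in C4-2 (-0.87 ± 0.091) with shCSN5. The LNCaP call was lost without scramble replicate 1 or 2 (adjusted p = 0.44 each). In 22Rv1 CENPN was at 155 and 168 CPM with the scramble and 144 and 148 CPM with shCSN5 (-0.14 ± 0.078, adjusted p = 0.16), and with DMSO and CSN5i-3 at 153 and 143 and 151 and 154 CPM (0.044 ± 0.13, adjusted p = 0.84), with overlap. In LNCaP, CSN5i-3 took it from 132 and 141 to 23.7 and 22.6 CPM (-2.56 ± 0.077). CENPN shares exon bases with CMC2 on the opposite strand (381 in GENCODE 29), and the strand counted is not given, so part of its reads may belong there.

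CENPI and CENPH, subunits of the constitutive centromere network, fell in 22Rv1 with CSN5i-3. CENPI had the lowest change of the 50 there, from 28.8 and 26.99 to 5.11 and 6.94 CPM (-2.21 ± 0.22). In PC3 CENPH had the smallest, from 10.02 and 9.95 to 9.20 and 8.09 CPM (-0.20 ± 0.084), with adjusted p = 0.026. That call was lost with DESeq2 (adjusted p = 0.16), without CSN5i-3 replicate 2 (0.33) and without either DMSO library (0.079 and 0.059). CENPH in the C4-2 pairs stood at 38.6 and 43.5 CPM (titled NT) and 8.99 and 8.33 CPM (titled C5i; -2.24 ± 0.11). CENPK was among the 3 highest in the PC3 knockdown, at 13.2 and 11.2 CPM with the scramble and 16.2 and 14.3 CPM with shCSN5 (0.32 ± 0.16, adjusted p = 0.22). Its treated libraries were above both controls without passing the test.

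Spindle microtubule genes (TPX2, HMMR, DLGAP5, NUSAP1, PRC1, ASPM, CKAP2L, FAM83D) nucleate, bundle and focus microtubules. All 8 fell in LNCaP, C4-2 and 22Rv1 with shCSN5 and in every line with CSN5i-3, and 5 fell in PC3 with shCSN5 (TPX2, DLGAP5, NUSAP1, PRC1, FAM83D). With shCSN5, TPX2 stood at 146 and 142, then 14.8 and 12.5 CPM in LNCaP (-3.40 ± 0.16) and at 264 and 237, then 77.2 and 83.1 CPM in C4-2 (-1.64 ± 0.10). TPX2 also stood at 245 and 272, then 101 and 105 CPM in 22Rv1 (-1.33 ± 0.081) and at 434 and 399, then 319.7 and 295 CPM in PC3 (-0.44 ± 0.10). TPX2, which nucleates microtubules near chromosomes and activates Aurora A, kept treated and control libraries apart in each line; in PC3 the adjusted p rose to 0.18 and 0.29 without shCSN5 replicate 1 or 2. With CSN5i-3, TPX2 stood at 95.3 and 85.6, then 4.86 and 4.45 CPM in LNCaP (-4.28 ± 0.10) and at 282 and 253, then 96.9 and 112 CPM in 22Rv1 (-1.35 ± 0.15). TPX2 was further at 112 and 118, then 38.97 and 38.4 CPM in PC3 (-1.57 ± 0.037) and at 192 and 202, then 13.7 and 12.5 CPM in C4-2 by title (-3.91 ± 0.093). At the same 5 µM dose the fall was smaller in 22Rv1 than in LNCaP. On CSN5 knockdown, HMMR stood at 32.2 and 32.8, then 0.880 and 1.08 CPM in LNCaP (-5.05 ± 0.20) and at 200.04 and 169.7, then 46.5 and 46.5 CPM in C4-2 (-1.99 ± 0.11). Its level stood at 165 and 188, then 61.99 and 68.5 CPM in 22Rv1 (-1.44 ± 0.092) and at 137 and 112, then 143 and 126 CPM in PC3 (0.11 ± 0.13). HMMR, a spindle pole protein, fell 33.1-fold in LNCaP and overlapped between groups in PC3 (adjusted p = 0.59). With CSN5i-3, HMMR stood at 33.6 and 30.7, then 0.706 and 0.426 CPM in LNCaP (-5.84 ± 0.18) and at 172 and 146, then 38.2 and 44.7 CPM in 22Rv1 (-1.94 ± 0.16). The other inhibitor pairs had HMMR at 23.95 and 23.7, then 6.21 and 5.28 CPM in PC3 (-2.05 ± 0.076) and at 30.9 and 35.5, then 0.0991 and 0.110 CPM in C4-2 by title (-8.27 ± 0.22). With the inhibitor it fell in LNCaP, 22Rv1 and PC3, to under 1 CPM in LNCaP, and it was lower in the C4-2 pair titled C5i.

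DLGAP5 (HURP), which stabilises microtubules near kinetochores, had the lowest change of all 50 in LNCaP with CSN5i-3, from 34.1 and 31.4 to 0.261 and 0.237 CPM (-7.02 ± 0.15). FAM83D, a spindle protein that recruits casein kinase, was among the 3 lowest there, from 39.2 and 38.9 to 0.471 and 0.639 CPM (-6.12 ± 0.14). FAM83D was also the lowest in PC3 with shCSN5, from 108 and 104 to 56.8 and 53.1 CPM (-0.95 ± 0.10). Treated and control libraries did not overlap for either gene. In the C4-2 pairs, CKAP2L, ASPM and TTK had at most 3 counts over both libraries titled C5i. CKAP2L had 2 counts there and 1074 in the pair titled NT, a ratio of 501.6 after scaling by library totals (95% counting interval 138.5 to 4147). ASPM, which focuses spindle poles, had 1 count against 535 (ratio 499.7), and TTK, the checkpoint kinase Mps1, 3 against 922 (287.1, interval 97.9 to 1395). The intervals cover counting error only. At these ratios the 3 genes stay below the median of the 50, which is then unchanged.

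All 3 cytokinesis genes (ECT2, ANLN, SHCBP1) fell with shCSN5 in LNCaP, C4-2 and 22Rv1 and with CSN5i-3 in each line, and ANLN and SHCBP1 fell with shCSN5 in PC3. In the knockdown experiment, ANLN stood at 66.9 and 67.1, then 4.11 and 2.90 CPM in LNCaP (-4.25 ± 0.22) and at 257 and 227, then 57.9 and 64.8 CPM in C4-2 (-1.98 ± 0.11). ANLN levels stood at 361 and 401, then 118 and 115 CPM in 22Rv1 (-1.71 ± 0.082) and at 457 and 402, then 300.5 and 269 CPM in PC3 (-0.59 ± 0.11). Anillin, the scaffold of the contractile ring, was lower in both treated libraries of all lines; in PC3 the call was lost without shCSN5 replicate 1 or 2 (adjusted p 0.051 and 0.15). With CSN5i-3, ANLN stood at 39.9 and 34.5, then 1.80 and 2.65 CPM in LNCaP (-4.05 ± 0.17) and at 414 and 358, then 106 and 126 CPM in 22Rv1 (-1.73 ± 0.16). ANLN likewise stood at 62.6 and 62.4, then 14.5 and 13.7 CPM in PC3 (-2.15 ± 0.050) and at 69.9 and 77.4, then 2.91 and 2.52 CPM in C4-2 by title (-4.76 ± 0.12). Treated and control libraries did not overlap in these tables either. SHCBP1, a protein of the central spindle and midbody, had the lowest change of all 50 in PC3 with CSN5i-3, from 24.6 and 25.5 to 1.56 and 1.43 CPM (-4.06 ± 0.10). In the C4-2 pairs it was also the lowest, at 81.4 and 88.2 CPM in the pair titled NT and 0.198 and 0.146 CPM in the pair titled C5i (-8.90 ± 0.18). ECT2, the exchange factor that turns on RhoA at the cell equator, was among the 3 smallest in 22Rv1 with CSN5i-3, from 280.1 and 229 to 113 and 139 CPM (-1.01 ± 0.17).

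Of the 6 chromosome structure genes (TOP2A, MKI67 and the condensin subunits NCAPG, NCAPH, SMC2, SMC4), all fell with shCSN5 in LNCaP, C4-2 and 22Rv1 and with CSN5i-3 in each line, and 2 fell with shCSN5 in PC3 (MKI67, NCAPH). Under the hairpin, TOP2A stood at 83.1 and 84.9, then 3.89 and 4.05 CPM in LNCaP (-4.40 ± 0.16) and at 312 and 264, then 74.9 and 79.6 CPM in C4-2 (-1.90 ± 0.11). It further stood at 475 and 534, then 139.9 and 139 CPM in 22Rv1 (-1.86 ± 0.083) and at 469.7 and 410.1, then 384 and 338 CPM in PC3 (-0.28 ± 0.12). Topoisomerase II alpha, which untangles sister chromatids, had the lowest change of all 50 in 22Rv1. It was not called in PC3 (adjusted p = 0.15), where no library overlapped, but passed there with a replicate block (adjusted p = 0.00019). With CSN5i-3, TOP2A stood at 81.5 and 72.8, then 1.26 and 0.924 CPM in LNCaP (-6.15 ± 0.15) and at 520.3 and 447, then 128 and 155 CPM in 22Rv1 (-1.77 ± 0.16). For the inhibitor TOP2A was also at 76.3 and 74.7, then 6.78 and 6.58 CPM in PC3 (-3.50 ± 0.056) and at 82.1 and 96.9, then 0.628 and 0.841 CPM in C4-2 by title (-6.93 ± 0.17). With CSN5i-3 the fold change was 71.02 in LNCaP at 5 µM and 11.3 in PC3 at 10 µM, doses that are not compared. With shCSN5, MKI67 stood at 203 and 208, then 11.1 and 8.50 CPM in LNCaP (-4.39 ± 0.18) and at 336 and 306, then 114 and 113 CPM in C4-2 (-1.50 ± 0.095). MKI67 also stood at 569 and 611, then 187 and 204 CPM in 22Rv1 (-1.59 ± 0.082) and at 418 and 401, then 283 and 272 CPM in PC3 (-0.56 ± 0.088). MKI67 encodes Ki-67, the coat of mitotic chromosomes and a common marker of proliferation; in PC3 its call was lost without shCSN5 replicate 1 or 2 (adjusted p 0.094 and 0.13). With CSN5i-3, MKI67 stood at 93.8 and 89.5, then 4.73 and 4.48 CPM in LNCaP (-4.31 ± 0.090) and at 731 and 636, then 162 and 169 CPM in 22Rv1 (-2.05 ± 0.14). MKI67 was further at 50.4 and 48.7, then 5.37 and 6.24 CPM in PC3 (-3.10 ± 0.065) and at 178 and 190.3, then 3.54 and 3.47 CPM in C4-2 by title (-5.71 ± 0.11). Treated libraries were below controls throughout, by title in C4-2.

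On CSN5 knockdown, SMC4 stood at 64.2 and 64.3, then 8.18 and 7.28 CPM in LNCaP (-3.06 ± 0.16) and at 364 and 303, then 100.3 and 105 CPM in C4-2 (-1.70 ± 0.11). Its level stood at 244 and 279, then 131 and 129.6 CPM in 22Rv1 (-1.004 ± 0.084) and at 412 and 349, then 388 and 348 CPM in PC3 (-0.049 ± 0.12). SMC4, an ATPase of condensin, overlapped between groups in PC3 (adjusted p = 0.8). With CSN5i-3, SMC4 stood at 56.4 and 51.8, then 9.20 and 10.7 CPM in LNCaP (-2.44 ± 0.10) and at 299 and 252, then 95.3 and 109 CPM in 22Rv1 (-1.43 ± 0.15). The other inhibitor pairs had SMC4 at 93.3 and 97.4, then 32.9 and 31.8 CPM in PC3 (-1.56 ± 0.040) and at 78.4 and 85.7, then 10.9 and 10.7 CPM in C4-2 by title (-2.92 ± 0.10). It fell in each inhibitor comparison without overlap, by title in C4-2. SMC4 shares 1306 exon bases with TRIM59 on the opposite strand, so part of its reads may belong there. SMC2, the other condensin ATPase, was the highest of the 50 in the PC3 knockdown, at 87.6 and 77.1 CPM with the scramble and 112 and 101 CPM with shCSN5 (0.37 ± 0.12, adjusted p = 0.082). Both treated libraries were above both controls. SMC2 passed the threshold without the filter on low counts (adjusted p = 0.035) and with a spread shared by all shRNA libraries (0.022). It did not pass with DESeq2, with DESeq2's size factors or with total counts. Its change was 0.47 without scramble replicate 1. NCAPH, which bridges the condensin ATPases, was among the 3 smallest falls in LNCaP with CSN5i-3, from 32.1 and 29.98 to 7.29 and 7.93 CPM (-2.03 ± 0.10). In all, 17 of the 50 genes share exon bases with another GENCODE 29 gene, 7 of them at least 300.

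The 4 genes of anaphase and mitotic exit (CDC20, PTTG1, ESPL1, UBE2C) fell with shCSN5 in LNCaP, C4-2 and 22Rv1 and with CSN5i-3 in each line, and 3 fell with shCSN5 in PC3 (all but ESPL1). In the knockdown experiment, CDC20 stood at 121 and 128, then 5.61 and 5.31 CPM in LNCaP (-4.51 ± 0.16) and at 166 and 191, then 44.5 and 39.7 CPM in C4-2 (-2.08 ± 0.12). CDC20 levels stood at 175 and 155, then 64.8 and 58.9 CPM in 22Rv1 (-1.42 ± 0.091) and at 183 and 229.98, then 119 and 136 CPM in PC3 (-0.69 ± 0.14). CDC20, which turns on the anaphase-promoting complex, fell 22.7-fold in LNCaP and was among the 3 lowest of the 50 in C4-2; its PC3 call was lost without shCSN5 replicate 1 (adjusted p = 0.1). With CSN5i-3, CDC20 stood at 74.8 and 80.1, then 1.26 and 1.30 CPM in LNCaP (-5.92 ± 0.11) and at 185 and 207, then 57.4 and 42.7 CPM in 22Rv1 (-1.97 ± 0.19). CDC20 likewise stood at 117 and 118, then 27.6 and 30.01 CPM in PC3 (-2.03 ± 0.040) and at 182 and 176, then 1.32 and 2.08 CPM in C4-2 by title (-6.72 ± 0.15). Its fall in LNCaP reached 60.4-fold. Under the hairpin, PTTG1 stood at 89.9 and 92.1, then 9.31 and 6.81 CPM in LNCaP (-3.50 ± 0.20) and at 119 and 108, then 34.3 and 34.7 CPM in C4-2 (-1.72 ± 0.11). It further stood at 123 and 138, then 54.4 and 58.4 CPM in 22Rv1 (-1.21 ± 0.089) and at 190.3 and 179, then 110.2 and 102 CPM in PC3 (-0.80 ± 0.10). Securin (PTTG1), the inhibitor that holds separase in check, fell in all 4 lines, also in PC3. With CSN5i-3, PTTG1 stood at 74.9 and 70.1, then 2.77 and 2.75 CPM in LNCaP (-4.71 ± 0.10) and at 125 and 107, then 46.01 and 48.6 CPM in 22Rv1 (-1.30 ± 0.15). For the inhibitor PTTG1 was also at 77.5 and 78.5, then 32.8 and 35.1 CPM in PC3 (-1.20 ± 0.041) and at 91.4 and 99.3, then 7.86 and 7.82 CPM in C4-2 by title (-3.60 ± 0.10). PTTG1 fell in each of these comparisons too (by title in C4-2), with no overlap. Separase (ESPL1), the protease that cuts cohesin, was among the 3 lowest in 22Rv1 with CSN5i-3, from 78.8 and 94.6 to 23.8 and 16.1 CPM (-2.12 ± 0.23). In PC3 with shCSN5 it stood at 48.8 and 65.4 CPM and then 35.9 and 39.7 CPM (-0.60 ± 0.17, adjusted p = 0.065).

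**Figure D2:**
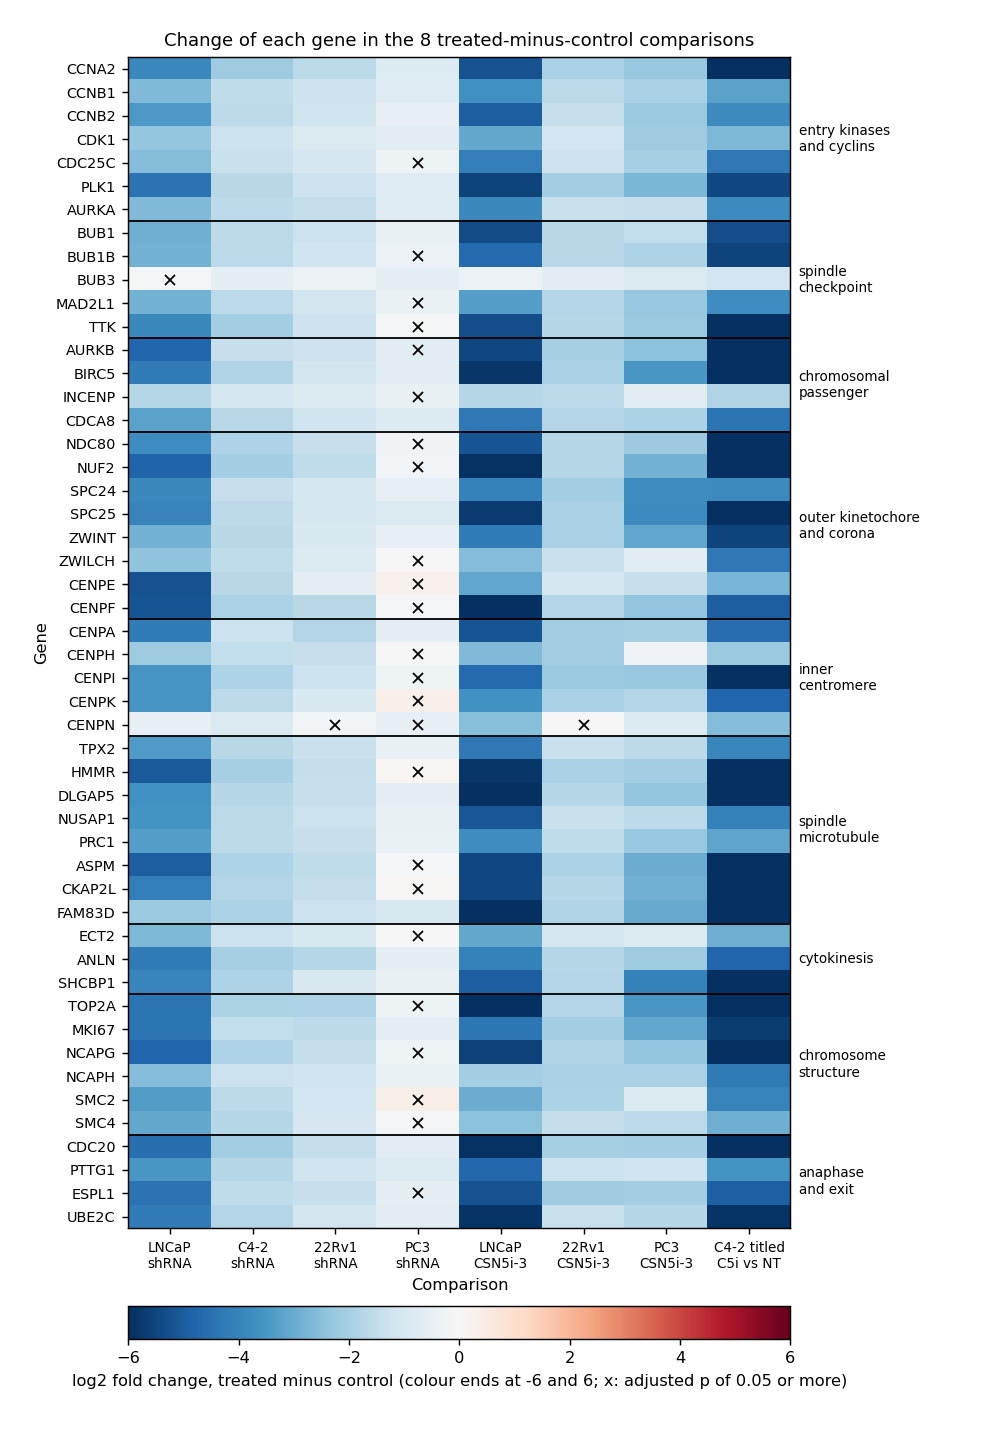
log2 fold change, treated minus control, of the 50 genes (rows, by role) in the 8 comparisons (columns), with colour ends at -6 and 6 and a cross where the adjusted p was 0.05 or more. The crosses gather in the PC3 shRNA column, with 24, and the other 7 columns hold 3 in all.

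The changes with shCSN5 differed between lines when the difference itself was tested. Between PC3 and LNCaP, which share a table, 48 genes fell less in PC3 (median difference 3.14), where 11% of all genes had a higher change in PC3 and 24.1% differed in either direction. The difference was 5.46 ± 0.28, adjusted p = 2.1e-05 for CENPE, 5.10 ± 0.23 for HMMR and 5.03 ± 0.18 for CENPF (edgeR interaction test). BUB3 went the other way (-0.48 ± 0.13, adjusted p = 0.028, against 13.1% of all genes), but its call was lost with DESeq2 (adjusted p = 0.15), with DESeq2's size factors (0.055), with total counts (0.11), without the filter on low counts (0.053) and without any of 6 libraries: PC3 shCSN5 replicate 1 (0.1) or 2 (0.24), PC3 scramble replicate 1 (0.16) or 2 (0.069), or LNCaP scramble replicate 1 or 2 (0.13 each). CENPN did not pass (-0.056 ± 0.16, adjusted p = 0.88). Between C4-2 and LNCaP, from separate tables, 45 genes fell less in C4-2 (median 1.90; 7.2% of all genes) and no gene more (4.9%; 12.1% differed in either direction; 2 of the 50 at an unadjusted p under 0.05 and 0 by DESeq2), CENPE again most (3.65 ± 0.28, adjusted p = 0.00036). The 5 that did not pass were BUB3, INCENP, CENPH, CENPN and FAM83D.

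Between 22Rv1 and C4-2, which share a table, the difference was smaller: 20 genes fell less in 22Rv1 and no gene fell more (median 0.39; of all genes 5.53% and 7.76%, together 13.3%), 1 falling more at an unadjusted p under 0.05 and 0 by DESeq2. Among them were CENPE (1.09 ± 0.13, adjusted p = 0.0012) and SHCBP1 (0.86 ± 0.12, adjusted p = 0.0028). The count was 12 and 7 without 22Rv1 shCSN5 replicate 1 or 2, 11 without 22Rv1 scramble replicate 1, and 7 and 10 without C4-2 shCSN5 replicate 1 or 2. Over the 4 lines, 48 of the 50 genes had their largest fall in LNCaP and 48 their smallest change in PC3. The matching shares of all genes were not counted. At the same 5 µM dose of CSN5i-3, 46 genes fell more in LNCaP than in 22Rv1 (median -3.09; 10% of all genes) and no gene less (5.57%; 15.6% either way), with a difference of -5.37 ± 0.26 for DLGAP5. BUB3, INCENP, NCAPH and CENPH did not pass. PC3 had the higher dose and is not compared.

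Inhibitor and hairpin were compared within a line across separate tables. In LNCaP 31 genes fell more with CSN5i-3 than with shCSN5 (median difference -1.09; 14.5% of all genes, 21.3% in either direction), led by FAM83D (-3.96 ± 0.20, adjusted p = 4.1e-05) and DLGAP5 (-3.49 ± 0.26). BUB1 (-2.51 ± 0.27) and CENPN (-2.17 ± 0.14) were among them. CENPE alone went the other way, falling more with the hairpin (2.01 ± 0.32, adjusted p = 0.004; 6.83% of all genes); the count of such genes was 3 and 2 without LNCaP shCSN5 replicate 1 or 2. In PC3 47 genes fell more with the inhibitor (median -1.60; 18.6% of all genes) and no gene less (20.5%; 39.1% either way), led by SHCBP1 (-3.54 ± 0.14, adjusted p = 6.8e-06), SPC24 (-3.22 ± 0.16) and TOP2A (-3.14 ± 0.14). INCENP (-0.14 ± 0.24, adjusted p = 0.69), CENPH (-0.13 ± 0.16, adjusted p = 0.59) and CENPN (-0.26 ± 0.15, adjusted p = 0.2) did not pass.

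In 22Rv1 6 genes fell more with CSN5i-3 (median -0.40; 1.9% of all genes) and no gene less (2.38%; 4.28% either way): BIRC5 (-0.84 ± 0.13, adjusted p = 0.017), ZWINT (-1.01 ± 0.10, adjusted p = 0.0046), SPC24, CENPK, SHCBP1 and NCAPH. In the last 3 tests with no gene less, the count was also 0 at an unadjusted p under 0.05 and by DESeq2. The count of 6 rested on single libraries. It was 10 and 13 without 22Rv1 CSN5i-3 replicate 1 or 2, 2 and 3 without DMSO replicate 1 or 2, 0 without either shCSN5 library, and 1 and 0 without scramble replicate 1 or 2. As a description over the 50 genes, the order of the changes with shCSN5 and with CSN5i-3 had a Spearman rho of 0.678 in LNCaP, 0.434 in 22Rv1 and 0.214 in PC3. The points share libraries and are not independent.

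**Figure D3:**
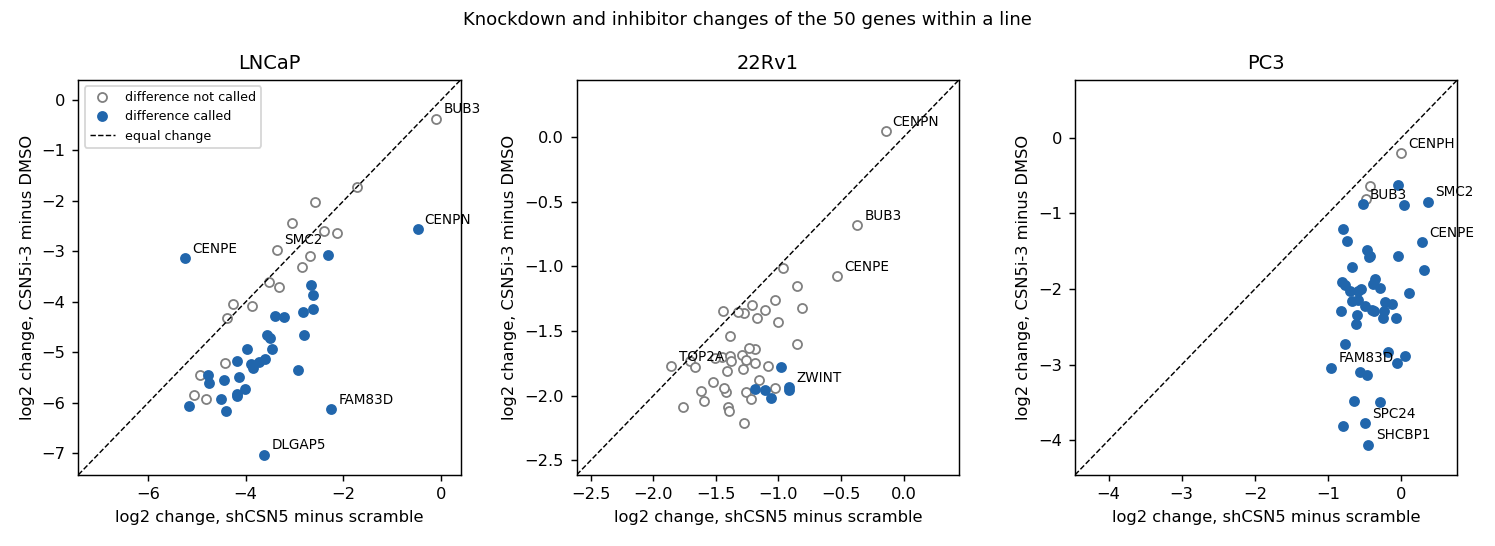
log2 change of each of the 50 genes with shCSN5 (x axis) and with CSN5i-3 (y axis) in LNCaP, 22Rv1 and PC3, filled where the difference between them was called; the dashed line marks equal changes. In PC3 47 genes are filled and all lie below the line, and in LNCaP CENPE lies above it.

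Control levels, from cells infected with the scramble shRNA, differed between lines. In the scramble libraries 44 of the 50 genes were higher in PC3 than in LNCaP and 2 lower (median 1.32), where 41.6% of all genes were higher and 38.2% lower. DLGAP5 stood at 28.6 and 30.8 CPM in LNCaP and 280.1 and 238 CPM in PC3 (3.12 ± 0.12), and BUB1 at 34.1 and 34.5 and 202 and 181 CPM (2.48 ± 0.10). The lower ones were CENPN (-1.50 ± 0.10) and SPC24 (-0.58 ± 0.10), and 4 were lower without PC3 scramble replicate 2. Between 22Rv1 and C4-2, 18 were higher in 22Rv1 and 10 lower (median 0.013; 35.5% and 29.8% of all genes), for example ASPM (1.56 ± 0.10) and CDK1 (-1.62 ± 0.11). Without C4-2 scramble replicate 2 the lower count was 16.

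**Figure D4:**
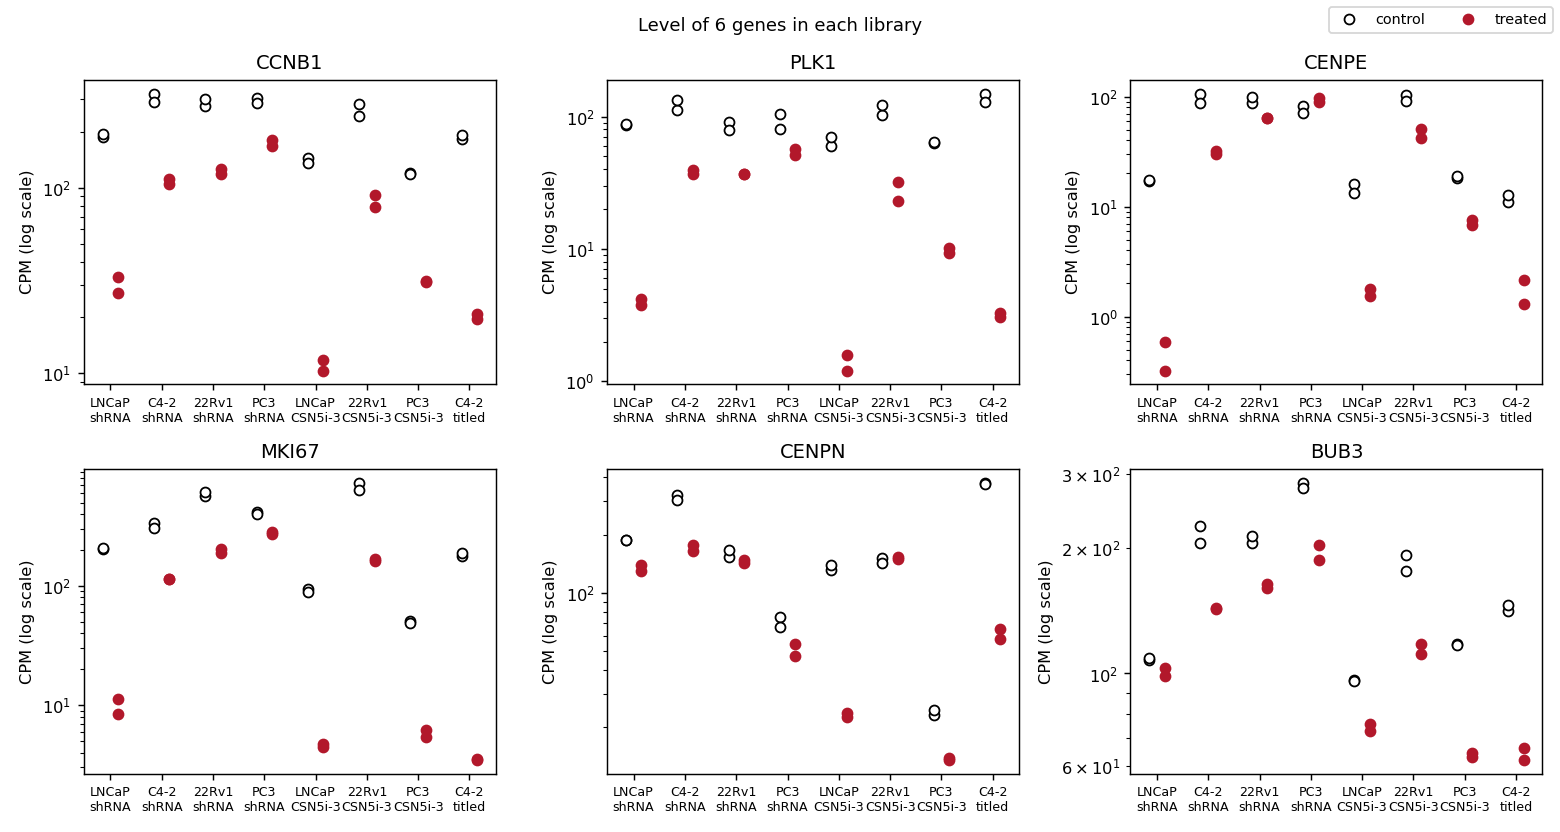
CPM of CCNB1, PLK1, CENPE, MKI67, CENPN and BUB3 in each library (log axis), with open circles for control and filled circles for treated libraries in the 8 comparisons. CENPE with shCSN5 is below 1 CPM in LNCaP and above its controls in PC3, and CENPN overlaps in 22Rv1 with CSN5i-3.

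Other genes of the same pathway gave the setting. Of 39 further mitotic genes, among them centromere, condensin and cytokinesis genes, with shCSN5 30 fell of 35 tested in LNCaP, 32 in C4-2, 31 in 22Rv1 and 11 in PC3, and no gene of that list rose. With CSN5i-3 33 of 36 fell in LNCaP and CENPT rose, 32 of 35 fell in 22Rv1, and 30 of 35 fell in PC3, where CENPC and MIS12 rose. In the C4-2 pairs 38 of 39 were lower in the pair titled C5i, against 37.9% of all genes. With shCSN5 17.4%, 16.2%, 21.3% and 6.41% of all genes fell and 18.3%, 15.7%, 22.6% and 10.3% rose (LNCaP, C4-2, 22Rv1, PC3). With CSN5i-3 26.5%, 12.2% and 38.5% of all genes fell and 26.2%, 11.8% and 38.5% rose (LNCaP, 22Rv1, PC3). The median change of the further mitotic genes in LNCaP was -2.21 with shCSN5 and -2.17 with CSN5i-3, nearer 0 than that of the 50.

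Cohesin and the anaphase-promoting complex act in mitosis but are made throughout the cell cycle. Of 23 such genes tested, shCSN5 lowered 6 in LNCaP, where CDC16 rose, 7 in C4-2, 10 in 22Rv1 and 2 in PC3, where NIPBL and STAG2 rose; of all genes, 17.4%, 16.2%, 21.3% and 6.41% fell in these lines. CSN5i-3 lowered 9 and raised 4 in LNCaP, lowered 3 and raised ANAPC16 in 22Rv1, and lowered 9 and raised 13 in PC3. In the order of these lines 26.5%, 12.2% and 38.5% of all genes fell and 26.2%, 11.8% and 38.5% rose. The share that fell with CSN5i-3 in 22Rv1 and PC3 was near that of all genes and is no result about this list. Of 24 such genes in the C4-2 pairs, 15 were lower and 6 higher in the pair titled C5i (median -0.44), against 37.9% and 37% of all genes. Their median change lay between -0.36 (LNCaP, shCSN5) and 0.094 (PC3, CSN5i-3) in the other 7 comparisons, beside medians of -3.58 and -2.10 for the 50 genes in the same fits.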

How the data were processed

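The deposited files hold raw gene counts, which the authors made with Partek, per the submitters' processing notes; for aligner, genome build and strand setting the sources used here give nothing. Total RNA came from cell lines, 2 libraries per group, and groups were taken from the descriptions, or from the titles for the C4-2 inhibitor libraries. The LNCaP and C4-2 inhibitor tables give symbols only. Counts were scaled by TMM, filtered with filterByExpr (minimum count 10) and fitted with edgeR 4.0.16 in R 4.3.3, each comparison on its own 4 libraries and each difference between changes on 8. Adjusted p-values (Benjamini-Hochberg over all genes) under 0.05 count as changed; SE is the log2 change divided by the root of F. DESeq2 1.42.0, other scalings, no filter, a replicate block, a shared spread and leaving out each library were alternatives. The fit was tested on simulated counts. The 50 genes and the other lists were chosen with earlier results of these data known. Values are given for 20 preset genes and for the 3 lowest and 3 highest changes of each comparison. Promoter windows came from RefSeq (GRCh38.p14). Library totals were 20607109 to 50924252 counts. Chi-square per gene between the libraries of a group, about 1 under counting error alone, ran from 1.72 (PC3 DMSO) to 71.3 (LNCaP shCSN5). One luminal marker, and sums that include it, are not reported here.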

Additional observations from a re-analysis of the deposited data

Results flagged for a closer look

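Differences between groups in the same contrast were tested with edgeR's interaction test and are given as numbers of the 50 genes whose change differed (adjusted p under 0.05, either direction). With shCSN5 the change differed between PC3 and LNCaP for 49 genes, between 22Rv1 and C4-2 for 20 and between C4-2 and LNCaP for 45. With CSN5i-3 at the same dose it differed between LNCaP and 22Rv1 for 46. Between inhibitor and hairpin it differed for 32 genes in LNCaP, 6 in 22Rv1 and 47 in PC3. No group had 4 or more libraries, so no single library was tested for standing apart.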

How the results depend on the processing

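The counts of the 50 genes that fell with shCSN5 in LNCaP, C4-2 and 22Rv1 and with CSN5i-3 in each line stayed within 1.5 times under all alternatives, and single genes kept direction and call in 2176 of 2306 repeats, with 21 reversed. Causes of the moves below were not tested. Scaling by total counts moved the median change to -0.37 (PC3 shCSN5), -4.79 (LNCaP CSN5i-3) and -5.03 (C4-2 pairs by title), and the median difference to 3.31 (PC3 minus LNCaP, shCSN5), 0.49 (22Rv1 minus C4-2), -1.75 (inhibitor minus hairpin, PC3) and 0.12 (scramble, 22Rv1 minus C4-2). It also gave 0 genes lower for PC3 minus LNCaP, 1 for C4-2 minus LNCaP and 2 higher for inhibitor minus hairpin in LNCaP, and turned CENPF (0.0049), SMC4 (0.022) and ZWILCH (0.028) in the PC3 knockdown and CENPN (0.11) in PC3 minus LNCaP. DESeq2 and its size factors gave 0 lower for PC3 minus LNCaP, a median of 1.28 for PC3 minus LNCaP scramble and a reversed -0.0055 for 22Rv1 minus C4-2 scramble. Without the filter the median was -3.64 (LNCaP shCSN5) and -1.69 (inhibitor minus hairpin, PC3), 1 gene rose in the PC3 knockdown, 0 were lower for PC3 minus LNCaP and 16 for inhibitor minus hairpin in 22Rv1. A spread shared by all shRNA libraries gave 1 higher in the PC3 knockdown, 11 for 22Rv1 minus C4-2 and 1 lower for C4-2 minus LNCaP.

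Replicate numbers are shared between groups, but the 2 pairs of a comparison share only a number; same-number libraries correlated from -0.642 to 0.542. The replicate block gave 3 higher in the PC3 knockdown (adjusted p 0.00018 for SMC2, 0.0013 for CENPE, 0.02 for CENPK), 11 for 22Rv1 minus C4-2 and 0 lower for inhibitor minus hairpin in 22Rv1. In the PC3 knockdown it also called AURKB (adjusted p = 0.00038), MAD2L1 (0.00065), NDC80 (0.0032) and TOP2A (0.00019) lower. 

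Leaving out 1 library, with the lone library assumed to vary like the others, gave 7 to 33 lower and 0 to 2 higher in the PC3 knockdown, 7 to 25 higher for 22Rv1 minus C4-2, 0 to 2 lower for C4-2 minus LNCaP, 0 to 1 lower for PC3 minus LNCaP, 0 to 13 lower and 23 to 35 lower for inhibitor minus hairpin in 22Rv1 and LNCaP, 1 to 3 higher in the latter, and, at baseline, 2 to 4 lower in PC3 than LNCaP and 7 to 16 lower in 22Rv1 than C4-2. Medians ranged from -3.75 to -3.43, -1.69 to -1.54, -1.29 to -1.18 and -0.50 to -0.38 with shCSN5 (LNCaP, C4-2, 22Rv1, PC3), from -4.86 to -4.62, -1.85 to -1.60, -2.11 to -2.06 and -5.06 to -4.78 for the inhibitor (LNCaP, 22Rv1, PC3, C4-2 by title), from 3.10 to 3.36, 0.28 to 0.41 and 1.79 to 2.10 for PC3 minus LNCaP, 22Rv1 minus C4-2 and C4-2 minus LNCaP, from -3.13 to -2.96 for LNCaP minus 22Rv1, from -1.13 to -0.99, -0.51 to -0.28 and -1.71 to -1.54 for inhibitor minus hairpin (LNCaP, 22Rv1, PC3), and from 1.22 to 1.38 and -0.0034 to 0.051 for the scramble levels. Single genes that turned were close to 0: in the PC3 knockdown CENPF (-0.20 to 0.017), SMC4 (-0.22 to 0.081) and ZWILCH (-0.21 to 0.076), above 0 without shCSN5 replicate 2 or scramble replicate 1, and HMMR (-0.084 to 0.27), below 0 without scramble replicate 2. So did CENPN in 22Rv1 with CSN5i-3 (-0.0020, -0.011) and in PC3 minus LNCaP (-0.099 to 0.19), INCENP in LNCaP minus 22Rv1 (-0.34 to 0.15), and INCENP (0.055, 0.019) and CENPH (-0.32 to 0.020) in inhibitor minus hairpin in PC3. Depth limits the genes with under 10 counts: 11 and 10 in the C4-2 libraries titled C5i, 4 and 3 in LNCaP with CSN5i-3 and 2 in LNCaP shCSN5 replicate 2.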
